A study of Mus musculus with 10 samples.

Results

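The genes described here are 10 antioxidant and glutathione genes of the kind driven by the transcription factor NRF2: Nqo1, Hmox1, Gclc, Gclm, Gsta3, Gsta4, Gstm1, Srxn1, Txnrd1 and Cat. They were taken by gene symbol from the 33120 genes listed with an exon length, and all 10 passed the filter on low counts in every comparison. Their mRNA was measured by RNA-seq of rRNA-depleted RNA in inguinal white adipose tissue (iWAT), a subcutaneous fat depot, of wild type male C57BL/6 mice. F0-CD and F0-LPD mice, 2 of each, were themselves fed a control diet (CD) or a low-protein diet (LPD) from weaning and were sampled at 10 to 12 weeks of age. F1-CD and F1-LPD mice, 3 of each, were sons sampled at 5 weeks; their fathers had been fed CD or LPD, while their mothers and the sons themselves received CD. The F1-LPD mice are called pLPD offspring below, for paternal LPD. All 4 groups therefore share strain, sex and tissue, and no mouse carried an altered allele. Generation, age and the set of libraries change together between F0 and F1, so these cannot be told apart. The question was whether a low-protein diet, which limits the supply of the amino acids that glutathione is built from, went along with another level of these mRNAs in the fed males or in their sons.

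NRF2, encoded by Nfe2l2, is held in the cytoplasm and marked for degradation by KEAP1. Electrophiles and oxidants modify KEAP1, and NRF2 then enters the nucleus, pairs with a small MAF protein and binds antioxidant response elements near genes of detoxification, glutathione synthesis and the thioredoxin system. Glutathione is a tripeptide of glutamate, cysteine and glycine; glutamate-cysteine ligase catalyses its first and limiting step, and glutathione transferases attach it to reactive compounds. In fat, these enzymes handle aldehydes formed when stored lipid is oxidised.

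The libraries held 6351075 to 10044546 reads on exons, so that 3 reads, the floor below which a gene cannot be told from absent, corresponded to 0.299 to 0.472 counts per 1000000 (CPM); this floor covers counting error only. The members had 10 to 40 reads per library for Nqo1, the least expressed, and 3901 to 5993 for Cat. The adipocyte markers, 10 of 10 of them, were detected in every library, with a summed level of 18082 to 25145 CPM. The F1-LPD libraries differed from the others in make-up: introns took 40.7% to 48.4% of their reads on protein-coding genes against 36.0% to 37.5% in F1-CD, and mitochondrial rRNA took 13.5% to 18.2% of reads on genes against 9.29% to 10.5%. F1-LPD replicate 1 stood furthest apart. CPM values are TMM-normalised over all 10 libraries, and each fold change comes from the fit of its own comparison. In a whole fat pad, fewer cells of a type and less RNA per cell cannot be told apart. Nothing beyond the replicate labels was given on each library's mouse except that the sons of a group had different mothers. Whether those sons also had different fathers, the animals fed the diet, was not stated. The p-values therefore measure the spread between these libraries and not a known spread between fathers.

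The promoter letters are shown for Gsta3, the member called by diet in F0, for Gclm, the member closest to the threshold in F1, and for Srxn1. These windows were picked because they hold letters that match a pattern for the core of the antioxidant response element. The sequences are RefSeq's (GRCm38.p6, the mm10 assembly), the 250 bases before the annotated start, 5′ to 3′ on the gene's strand. Capitals mark matches, on either strand, to TGACNNNGC in Gsta3 and Gclm and to TGAGNNNGC in Srxn1; these letter patterns do not overlap each other.
Gsta3, chr1:21240335-21240584, plus strand: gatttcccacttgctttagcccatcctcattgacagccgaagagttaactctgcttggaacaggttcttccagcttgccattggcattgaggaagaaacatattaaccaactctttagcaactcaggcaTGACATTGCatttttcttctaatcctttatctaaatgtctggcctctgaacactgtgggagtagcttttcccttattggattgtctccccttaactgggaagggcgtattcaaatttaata
Gclm, chr3:122245307-122245556, plus strand: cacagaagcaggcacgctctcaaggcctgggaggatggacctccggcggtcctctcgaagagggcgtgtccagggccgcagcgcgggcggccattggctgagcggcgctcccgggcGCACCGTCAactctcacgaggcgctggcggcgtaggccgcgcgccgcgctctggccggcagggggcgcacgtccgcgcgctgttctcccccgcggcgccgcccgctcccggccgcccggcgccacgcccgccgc
Srxn1, chr2:152105274-152105523, plus strand: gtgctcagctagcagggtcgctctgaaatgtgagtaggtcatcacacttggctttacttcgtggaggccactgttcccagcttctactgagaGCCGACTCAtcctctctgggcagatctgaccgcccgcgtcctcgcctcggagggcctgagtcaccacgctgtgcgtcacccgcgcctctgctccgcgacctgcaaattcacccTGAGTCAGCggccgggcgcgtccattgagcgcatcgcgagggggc
The Gsta3 match TGACATTGC lay 121 to 113 bases before the start, and the Gclm match GCACCGTCA, which reads on the other strand, lay 134 to 126 bases before it. Srxn1 held the second pattern at 158 to 150 and at 45 to 37 bases before its start. Among 7 members with a promoter in the RefSeq table, with 10 promoters between them, the first pattern was present in 3 promoters, the remaining one being the second Txnrd1 promoter, and the second pattern in 1. Over all 32851 mouse promoters of that length, 10.2% held the first pattern and 14.4% the second. Hmox1, Gclc and Gsta4 were not matched in the table. A match describes the letters only.

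In F0, 1 of the 10 members passed the threshold, an adjusted p of 0.05 over all genes tested by edgeR's quasi-likelihood test. It was Gsta3, an alpha-class glutathione transferase, which fell in LPD-fed males. Across all 14581 genes tested in F0, 2.5% passed the threshold and 1.32% passed it as lower. An unadjusted p below 0.05 was found for 5 members, and for 15.7% of all genes. In F1, 0 members passed by edgeR, against 1.17% of 14049 genes; 4 members had an unadjusted p below 0.05, as 15.3% of all genes did, DESeq2 called 2 (Gclm and Gsta3) and limma-trend 0. The F1 fold changes were positive for 5 members and negative for 5, with a median log2 of −0.04 beside 0.01 for all genes. The F0 fold changes were positive for 4 and negative for 6, with a median log2 of −0.07 beside 0.00035 for all genes.

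**Figure D1:**
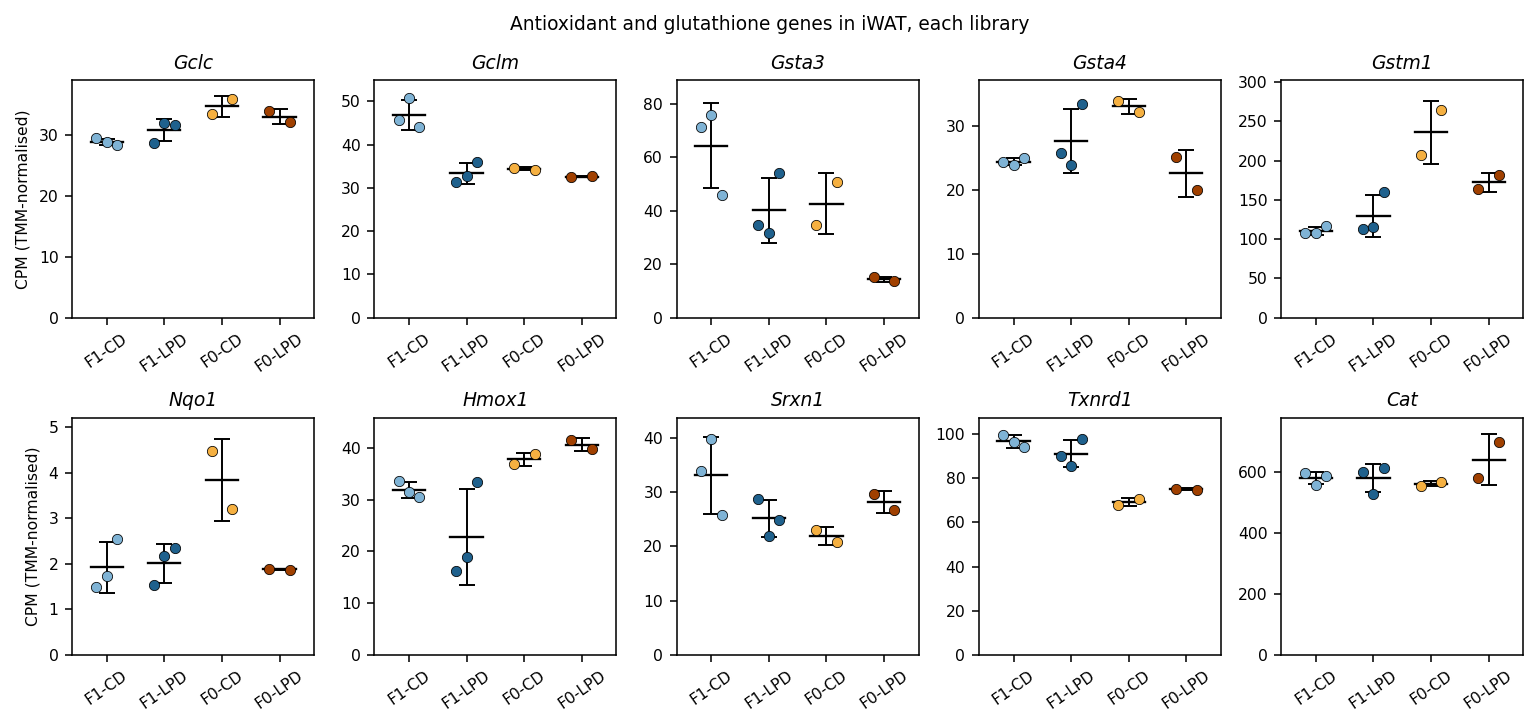
Level of each member in each library (CPM, linear axis from 0), with points for libraries, a horizontal line for the group mean and whiskers for the SD (n = 3 for F1 groups, n = 2 for F0 groups). Gsta3 sits at 13.6 and 15.0 CPM in the F0-LPD libraries, below the other 8, and Gclm is higher in the 3 F1-CD libraries than in the other 7.

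Per kilobase of exon, Cat was the most abundant member in each group, at 215 to 245 CPM per kb as group means, and Gstm1 came next at 75.1 to 160 CPM per kb. Nqo1 was the lowest in each group, at 1.21 to 2.47 CPM per kb. The order between them changed with the group. Gsta3 came next after Gstm1 in F1-CD at 38.0 CPM per kb, but only above Gclm and Nqo1 in F0-LPD at 8.45 CPM per kb, where its libraries overlapped those of Gclc at 8.76 CPM per kb. Gsta4 and Hmox1 overlapped in F1-CD (19.3 and 18.2 CPM per kb), Gsta3 and Gsta4 overlapped in F1-LPD (23.7 and 21.8 CPM per kb) and in F0-CD (25.2 and 26.1 CPM per kb), and Gclc and Gclm overlapped in F1-CD (7.66 and 7.44 CPM per kb). The other overlaps of neighbours were Gsta3 with Hmox1 in F0-CD, Txnrd1 with Srxn1 in F1-CD, and Gsta4 with Hmox1, Hmox1 with Txnrd1 and Srxn1 with Gclc in F1-LPD. Cat, Gstm1 and Nqo1 overlapped no neighbour in rank in any group.

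Of the glutathione synthesis genes, Gclc encodes the catalytic subunit of glutamate-cysteine ligase (ENSMUSG00000032350, mm10 chromosome 9, 77754535 to 77794485). It measured 33.5 and 35.9 CPM in F0-CD, 33.8 and 32.2 CPM in F0-LPD, 29.4, 28.8 and 28.4 CPM in F1-CD and 28.6, 32.0 and 31.6 CPM in F1-LPD. The diet groups overlapped in both generations, with a log2 fold change of −0.07 ± 0.10 (SE, adjusted p = 0.810) in F0 and 0.10 ± 0.11 (adjusted p = 0.698) in F1.

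Gclm, which encodes the modifier subunit that raises the activity of the ligase, lies on chromosome 3 (ENSMUSG00000028124, 122245557 to 122270732). Its levels were 45.6, 50.8 and 44.1 CPM in F1-CD and 31.4, 32.7 and 36.0 CPM in F1-LPD, against 34.7 and 34.2 CPM in F0-CD and 32.6 CPM in both F0-LPD libraries. All 3 pLPD offspring lay below all 3 CD offspring; 10.9% of all genes were separated in that direction in F1 and Gclm was the only member whose F1 groups did not overlap. The log2 fold change in F1 was −0.48 ± 0.10, just short of the threshold (adjusted p = 0.0512, edgeR; exact permutation p = 0.1, the smallest that 3 against 3 mice can give). The call turned with the setting: the adjusted p was 0.0376 by DESeq2 and 0.0206 with all 4 groups in one fit. Leaving out each of 6 libraries gave 0.0312 to 0.239, with a call only without F1-CD replicate 3. On uniquely mapped reads the adjusted p was 0.189. Those reads are only 45.1% of the exon reads of Gclm, while the others also matched elsewhere in the genome, which makes its count uncertain. With the exon share of reads as a covariate, the log2 fold change was −0.32 (adjusted p = 0.659). That share did not overlap between the F1 groups, as given above for introns, so such a fit cannot cleanly separate it from paternal diet. In F0, the log2 fold change was −0.08 ± 0.10 (adjusted p = 0.782).
The summed level of 7 fibroblast and progenitor markers, all 7 detected in each library, moved alongside in F1, at 14021 to 23538 CPM in F1-CD and 10136 to 12793 CPM in F1-LPD. In F0 the sum was far lower, at 3306 and 4175 CPM in F0-CD and 3526 and 4016 CPM in F0-LPD. Gclm there, at 32.6 to 34.7 CPM, lay inside its F1-LPD range. None of those 7 passed the F1 test by edgeR; 7 of 7 had a negative fold change with a median log2 of −0.29. Col1a1 and Col3a1 made up most of the sum. Summed epithelial markers were also lower in F1-LPD, at 2.14 to 5.15 CPM against 11.7 to 16.4 CPM in F1-CD. In F0 that sum was 4.25 and 6.29 CPM in F0-CD and 4.80 and 4.94 CPM in F0-LPD. These are low levels, with as few as 3 of 7 epithelial markers detected in an F1-LPD library. Of the 4 tested in F1, 2 passed as lower. Macrophage markers were lower in F1-LPD too, as given below for Hmox1. Over 10 libraries, the genes whose log2 levels were most like those of Gclm were Sfrp2 (Pearson r = 0.98), Cd248 (r = 0.98) and Bmp1 (r = 0.98), the nearest of 9939 genes searched. Libraries share depth and tissue make-up, so r is a description only. The part of these markers in the Gclm values was not tested.

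Gsta3, Gsta4 and Gstm1 are the glutathione transferases among the members. Gsta3 (ENSMUSG00000025934, chromosome 1, 21240589 to 21265661) is a transferase with activity towards toxin epoxides in the mouse. It measured 34.5 and 50.6 CPM in F0-CD and 15.0 and 13.6 CPM in F0-LPD, so both LPD-fed males lay far below both CD-fed males. The fold change was 2.98-fold lower in F0-LPD (log2 −1.57 ± 0.19, adjusted p = 0.00748, edgeR), and it was called in each of 8 alternative settings (log2 −1.58 to −1.55) and without each library in turn (log2 −1.82 to −1.26).
In F1, Gsta3 measured 71.4, 75.7 and 46.0 CPM in F1-CD and 34.8, 31.5 and 54.1 CPM in F1-LPD. The ranges overlapped, because F1-CD replicate 3 lay below F1-LPD replicate 3. The log2 fold change was −0.68 ± 0.21 (adjusted p = 0.152), and it was −0.29 with the exon share as a covariate (adjusted p = 0.863). Leaving out each of 6 libraries gave −0.95 to −0.54 (adjusted p up to 0.4475). Only the fit without F1-CD replicate 3 called it (−0.87, adjusted p = 0.0209). The difference of the diet effects, F1 minus F0, was 0.89 ± 0.36 in log2 (adjusted p = 0.318), so the 2 diet effects on Gsta3 were not shown to differ.
Markers of other cells moved in F0 as well. Summed skeletal muscle markers were 1550 and 2391 CPM in F0-CD and 1132 and 817 CPM in F0-LPD, 6 of 10 of them passing the test as lower. Summed brown or beige adipocyte markers were 258 and 135 CPM in F0-CD against 722 and 620 CPM in F0-LPD, 4 of 6 passing as higher. Muscle markers were far lower in F1, at 48.5 to 196 CPM, where Gsta3 was at 31.5 to 75.7 CPM, and brown or beige markers were at 710 to 2210 CPM there. Their part in the F0 value was not tested.
Gsta3's uniquely mapped reads, 80.0% of its exon reads, gave a log2 fold change of −1.57 in F0 (adjusted p = 0.00657).

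Gsta4 (ENSMUSG00000032348, chromosome 9, 78182774 to 78209349) conjugates hydroxynonenal, an aldehyde of lipid peroxidation. It measured 33.9 and 32.2 CPM in F0-CD and 25.1 and 20.0 CPM in F0-LPD, without overlap. The F0 log2 fold change of −0.55 ± 0.13 missed the threshold (adjusted p = 0.0735, edgeR), and it ran from −0.73 to −0.39 with each library left out in turn. It was called in 2 of 8 alternative settings, without a filter (adjusted p = 0.001385) and with a replicate block (adjusted p = 0.000785). In F1, 24.3, 24.0 and 25.0 CPM in F1-CD stood against 25.7, 23.9 and 33.4 CPM in F1-LPD, which overlap (log2 0.19 ± 0.14, adjusted p = 0.562).
Gstm1 (ENSMUSG00000058135, chromosome 3, 108012255 to 108017973), a mu-class transferase of broad substrate range, was the most abundant transferase of the set. Its levels were 208 and 265 CPM in F0-CD and 163 and 181 CPM in F0-LPD, with no overlap (log2 −0.46 ± 0.13, adjusted p = 0.110). The same 2 of 8 settings called Gstm1 in F0, without a filter (adjusted p = 0.0011) and with a replicate block (adjusted p = 0.00065). In F1 it measured 107, 108 and 116 CPM in F1-CD and 113, 116 and 161 CPM in F1-LPD (log2 0.24 ± 0.12, adjusted p = 0.396). F1-LPD replicate 3 was the highest F1 library for both Gsta4 and Gstm1.
For these 2 genes the fold changes thus had opposite signs in F0 and F1, but the difference of the diet effects did not pass the threshold, at a log2 of 0.72 ± 0.21 for Gsta4 (adjusted p = 0.121) and 0.69 ± 0.20 for Gstm1 (adjusted p = 0.138). The genes most like Gstm1 were Chmp2a (r = 0.98), Scn7a (r = 0.98) and Tmem43 (r = 0.97). Uniquely mapped reads are 88.0% of the Gstm1 exon reads.

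Nqo1, a quinone reductase often read as an indicator of NRF2 activity, lies on chromosome 8 (ENSMUSG00000003849, 107388225 to 107403206). Its levels were 4.48 and 3.20 CPM in F0-CD, 1.89 and 1.87 CPM in F0-LPD, 1.48, 1.74 and 2.55 CPM in F1-CD and 1.53, 2.17 and 2.34 CPM in F1-LPD. Both F0-LPD libraries lay below both F0-CD libraries, with a log2 fold change of −1.02 ± 0.34 (adjusted p = 0.173). At 10 to 40 reads per library, a smaller difference was hard to resolve, and the F1 value of 0.08 ± 0.39 (adjusted p = 0.951) leaves the direction unsettled.

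Hmox1 encodes haem oxygenase 1, the inducible enzyme that degrades haem, and is on chromosome 8 (ENSMUSG00000005413, 75093621 to 75100589). It ran from 30.5 to 41.5 CPM in the 7 libraries outside F1-LPD, with 36.9 and 38.8 CPM in F0-CD, 41.5 and 39.8 CPM in F0-LPD and 33.6, 31.6 and 30.5 CPM in F1-CD. The pLPD offspring were uneven, with 16.2 and 18.8 CPM in replicates 1 and 2 but 33.5 CPM in replicate 3, which lay inside the F1-CD range. The F1 log2 fold change was −0.48 ± 0.21 (adjusted p = 0.314) and turned to 0.15 with the exon share as a covariate (adjusted p = 0.926). Leaving out each of 6 libraries gave −0.85 to −0.28 (adjusted p up to 0.649), called only without F1-LPD replicate 3 (adjusted p = 0.0246). In F0 the log2 fold change was 0.10 ± 0.09 (adjusted p = 0.683). The difference of the diet effects was −0.59 ± 0.29 (adjusted p = 0.439). Leaving out each library in turn gave differences of −0.96 to −0.39, the former without F1-LPD replicate 3 (adjusted p = 0.0204).
Hmox1 is strongly expressed by macrophages. The summed level of 10 macrophage markers, all 10 detected in every library, was 1229 to 1522 CPM in F1-CD, 832 to 994 CPM in F1-LPD and 1141 to 1314 CPM in F0, and 7 of the 10 fell in F1-LPD by the edgeR test. F1-LPD replicate 3 had the highest macrophage sum of its group, 994 CPM, which is below every F1-CD library, while its Hmox1 level was not. The genes most like Hmox1 were Sntb1 (r = 0.97), Slc11a1, a metal transporter of phagocytes (r = 0.96), and Stip1 (r = 0.95). The part of the macrophage markers in the Hmox1 values was not tested.

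**Figure D2:**
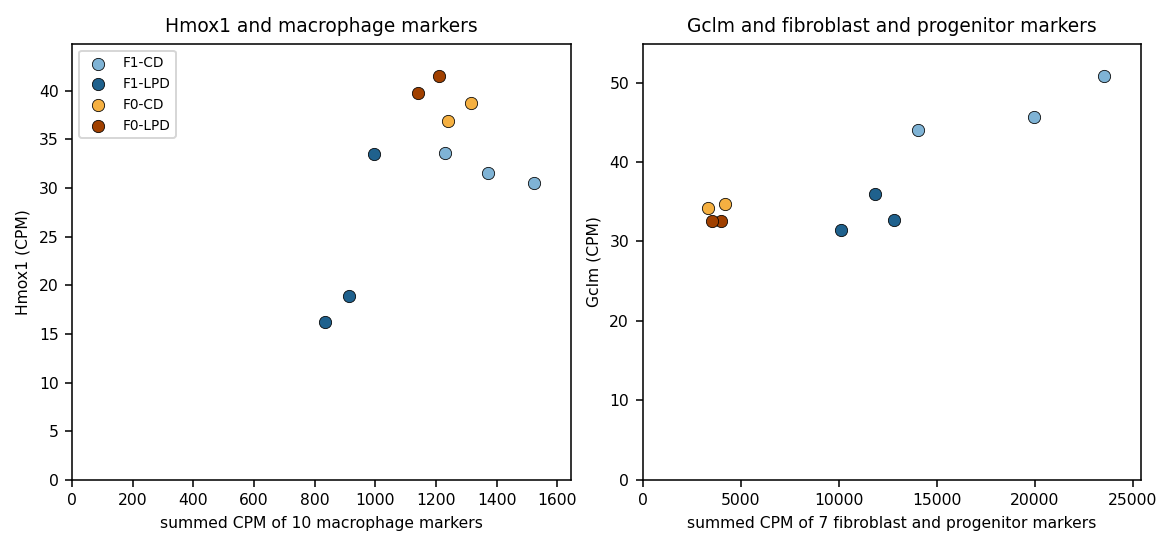
Hmox1 against the summed CPM of 10 macrophage markers, and Gclm against the summed CPM of 7 fibroblast and progenitor markers, 1 point per library, linear axes from 0. The F1-LPD libraries hold the 3 lowest macrophage sums (832 to 994 CPM), and the F1-CD libraries hold the 3 highest fibroblast and progenitor sums (14021 to 23538 CPM).

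Srxn1, sulfiredoxin, repairs overoxidised peroxiredoxins (ENSMUSG00000032802, chromosome 2, 152105516 to 152111376). It measured 23.1 and 20.8 CPM in F0-CD and 29.6 and 26.7 CPM in F0-LPD, a separated pair of groups with a log2 fold change of 0.36 ± 0.12 (adjusted p = 0.181). In F1 it measured 33.9, 39.8 and 25.7 CPM in F1-CD and 28.8, 22.0 and 24.8 CPM in F1-LPD, which overlap through F1-CD replicate 3 (log2 −0.39 ± 0.16, adjusted p = 0.281). The difference of the diet effects was −0.76 ± 0.24 (adjusted p = 0.163) and passed the threshold only without F1-CD replicate 3 among the libraries left out in turn (−0.91, adjusted p = 0.0310).
Txnrd1, the cytosolic thioredoxin reductase, which uses NADPH to keep thioredoxin reduced, had small fold changes with either diet (ENSMUSG00000020250, chromosome 10, 82833951 to 82897712). Its levels were 67.8 and 70.5 CPM in F0-CD, 75.3 and 74.6 CPM in F0-LPD, 99.7, 96.5 and 93.9 CPM in F1-CD and 90.2, 85.4 and 97.6 CPM in F1-LPD. The log2 fold change was 0.12 ± 0.08 in F0 (adjusted p = 0.574) and −0.08 ± 0.08 in F1 (adjusted p = 0.704).
Cat, catalase, which breaks down hydrogen peroxide in peroxisomes, is on chromosome 2 (ENSMUSG00000027187, 103453849 to 103485160). It measured 557 and 569 CPM in F0-CD, 582 and 701 CPM in F0-LPD, 599, 560 and 589 CPM in F1-CD and 601, 529 and 614 CPM in F1-LPD. With 3901 to 5993 reads per library, the log2 fold change was 0.01 ± 0.09 in F1 (adjusted p = 0.987) and 0.19 ± 0.12 in F0 (adjusted p = 0.537).

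Counted together, 9 of 10 members had diet groups that did not overlap in F0 (5 lower and 4 higher in F0-LPD), where 46.5% of all genes were separated, 23.6% as lower and 22.8% as higher; 2 against 2 mice cannot give an exact permutation p below 0.3333. In F1, 1 of 10 was separated, against 20.1% of all genes. The test of the difference between the diet effects called 0 members by edgeR, where 1.25% of 15111 genes passed; 5 members had an unadjusted p below 0.05, as did 12.5% of all genes, and DESeq2 called 0.

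**Figure D3:**
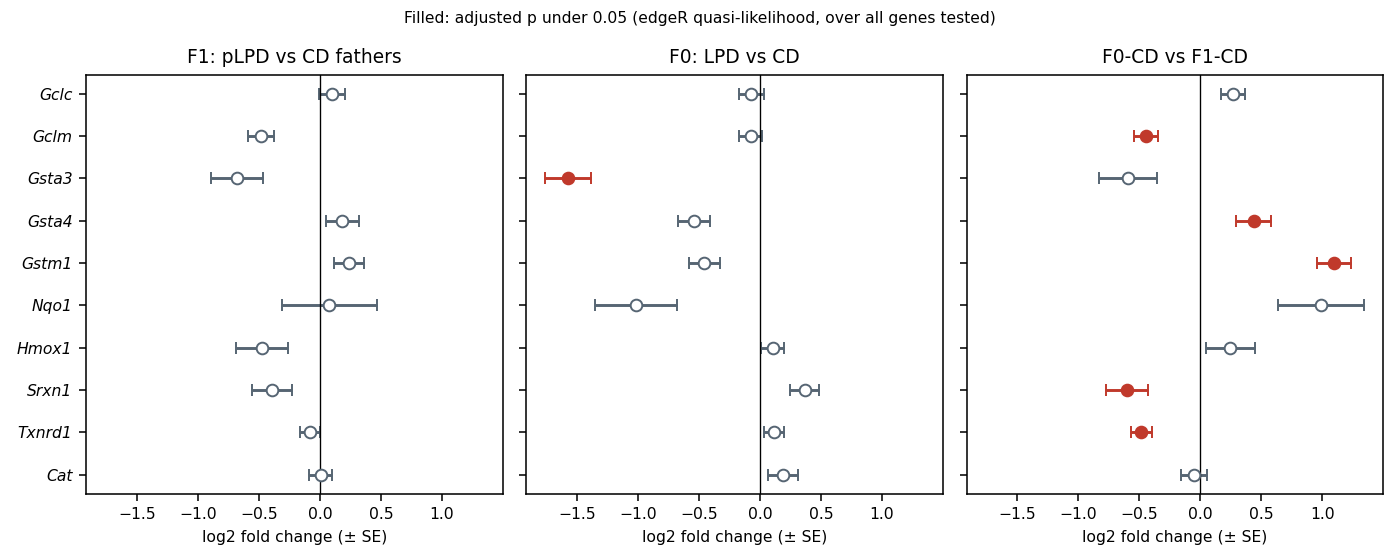
Log2 fold change of each member with its SE in F1 (pLPD against CD offspring), in F0 (LPD against CD) and between the control groups (F0-CD against F1-CD); filled red points have an adjusted p under 0.05 by edgeR over all genes tested. Filled points number 0 in F1, 1 in F0 and 5 between the control groups.

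Between the control groups, 5 of 10 members passed the threshold, 2 as higher and 3 as lower, against 18.9% of all 15111 genes (8.78% higher and 10.1% lower). An unadjusted p below 0.05 was found for 8 members, and for 32.8% of all genes. This comparison shares the F0-CD libraries with the F0 diet comparison and the F1-CD libraries with the F1 comparison. Higher in F0-CD, the older males, were Gstm1, by 2.14-fold (log2 1.10 ± 0.14, adjusted p = 0.000256), and Gsta4 (log2 0.44 ± 0.14, adjusted p = 0.0489). Lower in F0-CD were Txnrd1 (log2 −0.48 ± 0.08, adjusted p = 0.00176), Gclm (log2 −0.45 ± 0.10, adjusted p = 0.00868) and Srxn1 (log2 −0.60 ± 0.17, adjusted p = 0.0270). Gstm1 and Txnrd1 kept their call without each library in turn, whereas Gclm was called in 3 of those 5 fits, losing the call without F0-CD replicate 1 (adjusted p = 0.0554) or replicate 2 (adjusted p = 0.0997). Srxn1 was called in 1, the fit without F1-CD replicate 3 (log2 −0.75, adjusted p = 0.00329), with adjusted p values up to 0.218 in the others. Gsta4 was called in 0 (adjusted p from 0.0621 to 0.188) and was also not called by DESeq2 (adjusted p = 0.0695). Nqo1 (log2 0.99 ± 0.36, adjusted p = 0.0700), Gclc (0.26 ± 0.10, adjusted p = 0.0806) and Gsta3 (−0.60 ± 0.24, adjusted p = 0.101) did not pass, nor did Hmox1 (0.25 ± 0.20) and Cat (−0.05 ± 0.11). Without F1-CD replicate 3, Nqo1 (1.24, adjusted p = 0.0430) and Gsta3 (−0.78, adjusted p = 0.0218) passed as well. The groups of 8 members did not overlap here, but 49.9% of all genes were separated and 2 against 3 mice cannot give an exact permutation p below 0.2. Markers of several cell types moved with this contrast. Muscle markers were higher in F0-CD for all 10, and 4 of 10 adipocyte markers were higher. Brown or beige markers summed to 135 to 258 CPM in F0-CD against 1123 to 1687 CPM in F1-CD, with 4 of 6 lower and a median log2 of −1.80, and 2 of 5 tested epithelial markers were lower. The fibroblast and progenitor sum was 3306 and 4175 CPM in F0-CD against 14021 to 23538 CPM in F1-CD, but it followed the collagen genes Col1a1 (log2 −3.27) and Col3a1 (log2 −2.78): 3 of the 7 markers were lower, 1 was higher, and the median log2 was 0.12. The part of these markers in the members' values was not tested.

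Beyond the members, 105 genes in 8 lists around the same chemistry were followed. In F1, 0 of 96 tested passed by edgeR; 25 had an unadjusted p below 0.05, DESeq2 called 10 and limma-trend 0. Over all genes in F1, 1.17% passed and 15.3% had an unadjusted p below 0.05. The 10 that DESeq2 called were Maff, Slc7a11, Gstt1, Gpx3, Txnip, Ftl1, G6pdx, Pgd, Taldo1 and Tkt. Fold changes were positive for 34 and negative for 62, with a median log2 of −0.07. In F0, 2 of 95 passed, both as higher, where 2.5% of all genes passed. An unadjusted p below 0.05 was found for 32 of the 95 and for 15.7% of all genes, DESeq2 called 5 (Gstz1, Gpx1, Sesn2, Sod3 and G6pdx) and limma-trend 0. A negative fold change was found for 63 of 95, with a median log2 of −0.08.
The 2 called in F0 were Sesn2, sestrin 2, a stress-induced protein that damps mTORC1 signalling on leucine shortage, and Sod3, the extracellular superoxide dismutase. Sesn2 rose from 19.4 and 14.0 CPM in F0-CD to 32.5 and 46.2 CPM in F0-LPD (log2 1.24 ± 0.20, adjusted p = 0.0192), while it measured 19.7 to 27.4 CPM in F1 (log2 0.07 ± 0.15, adjusted p = 0.861). Sod3 rose from 193 and 176 CPM to 295 and 432 CPM (log2 0.98 ± 0.16, adjusted p = 0.0229), while it measured 199 to 230 CPM in F1 (log2 −0.08 ± 0.08, adjusted p = 0.682). Each held its call in 2 of the 4 fits that left out a library: Sesn2 lost it without F0-CD replicate 2 (adjusted p = 0.0511) or F0-LPD replicate 2 (adjusted p = 0.0688), and Sod3 without F0-CD replicate 1 (adjusted p = 0.0639) or replicate 2 (adjusted p = 0.0936). By limma-trend on RPKM, neither passed (adjusted p = 0.0707 for Sesn2 and 0.0842 for Sod3).

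Among the other glutathione transferases, 15 of 18 tested had a negative fold change in F0, with a median log2 of −0.13, and none was called by edgeR. Named next are the 6 called between the control groups, a contrast that uses the same F0-CD and F1-CD libraries. Being picked by that contrast tilts their F0 and F1 values in advance, so these values are a description only. The F0 values were a log2 of −0.50 ± 0.15 for Gstt1 (adjusted p = 0.144) and −0.44 ± 0.18 for Gstt2 (adjusted p = 0.275). Gstz1, which also isomerises maleylacetoacetate in tyrosine breakdown, was at −0.44 ± 0.11 (adjusted p = 0.0808). Gstm6 was at −0.52 ± 0.27 (adjusted p = 0.418), Gsto1 at −0.05 ± 0.09 (adjusted p = 0.862) and Mgst3 at 0.10 ± 0.21 (adjusted p = 0.882). In F1, 10 of the 18 were positive and 8 negative, with a median log2 of 0.05, and Gstt1 was at 0.67 ± 0.17 (adjusted p = 0.0850). The difference of the diet effects for Gstt1 was 1.16 ± 0.26 (adjusted p = 0.0510).
The NRF2-linked detoxification genes were negative in F0 for 11 of 11 tested, with a median log2 of −0.22, none called by edgeR. They included Ugdh, which makes UDP-glucuronate (−0.37 ± 0.09, adjusted p = 0.0869), the glutathione conjugate exporter Abcc1 (−0.24 ± 0.09, adjusted p = 0.247) and Ephx1, a microsomal epoxide hydrolase (−0.22 ± 0.09, adjusted p = 0.267). Ugdh, Abcc1 and Ephx1 are the genes of this list called between the control groups, so the same limit holds for their values. In F1, 3 of the 11 were positive and 8 negative, with a median log2 of −0.08.
Of the NRF2 regulators, Nfe2l2 measured 110 CPM in F0-CD and 87.8 CPM in F0-LPD as group means (log2 −0.33 ± 0.09, adjusted p = 0.102), and 68.7 and 76.4 CPM in F1-CD and F1-LPD (0.16 ± 0.17, adjusted p = 0.695). Keap1 was at −0.11 ± 0.09 in F0 (adjusted p = 0.625) and −0.13 ± 0.10 in F1 (adjusted p = 0.598). Maff, a small MAF partner of NRF2, was at −1.38 ± 0.33 in F1 (adjusted p = 0.0683) and 0.46 ± 0.20 in F0 (adjusted p = 0.319). Nfe2l2, Keap1 and Maff were also called between the control groups, so the same limit holds for their diet values.

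The cytosolic NADPH supply genes, which feed glutathione reductase and thioredoxin reductase and also fatty acid synthesis, were negative in F1 for 6 of 6, with a median log2 of −0.55, none called by edgeR and 4 called by DESeq2 (G6pdx, Pgd, Taldo1 and Tkt). Pgd (−0.71 ± 0.17, adjusted p = 0.0703), Taldo1 (−0.43 ± 0.10, adjusted p = 0.0628) and G6pdx (−0.49 ± 0.13, adjusted p = 0.110), all of the pentose phosphate pathway, were among them. Pgd and Taldo1 were also called between the control groups, which shares the F1-CD libraries, so their F1 values carry the same limit. In F0, 5 of 6 were negative, with a median log2 of −0.20, and G6pdx was at 0.46 ± 0.11 (adjusted p = 0.0696). In the glutathione synthesis, supply and turnover list, 9 of 19 were positive in F1 and 8 of 18 in F0, with median log2 values of −0.02 in both. The cystine transporter gene Slc7a11, singled out after its value was seen, was at a log2 of 1.16 ± 0.27 in F1 (adjusted p = 0.0673), with group means of 15.6 CPM in F1-LPD and 7.05 CPM in F1-CD, and at −0.02 ± 0.24 in F0 (adjusted p = 0.990). The glutathione peroxidases (5 tested), the thioredoxins, peroxiredoxins and sestrins (18 tested) and the superoxide dismutases with haem and metal binding genes (11 tested) had F1 medians of −0.24, −0.07 and −0.09 and F0 medians of 0.14, −0.02 and −0.16.

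**Figure D4:**
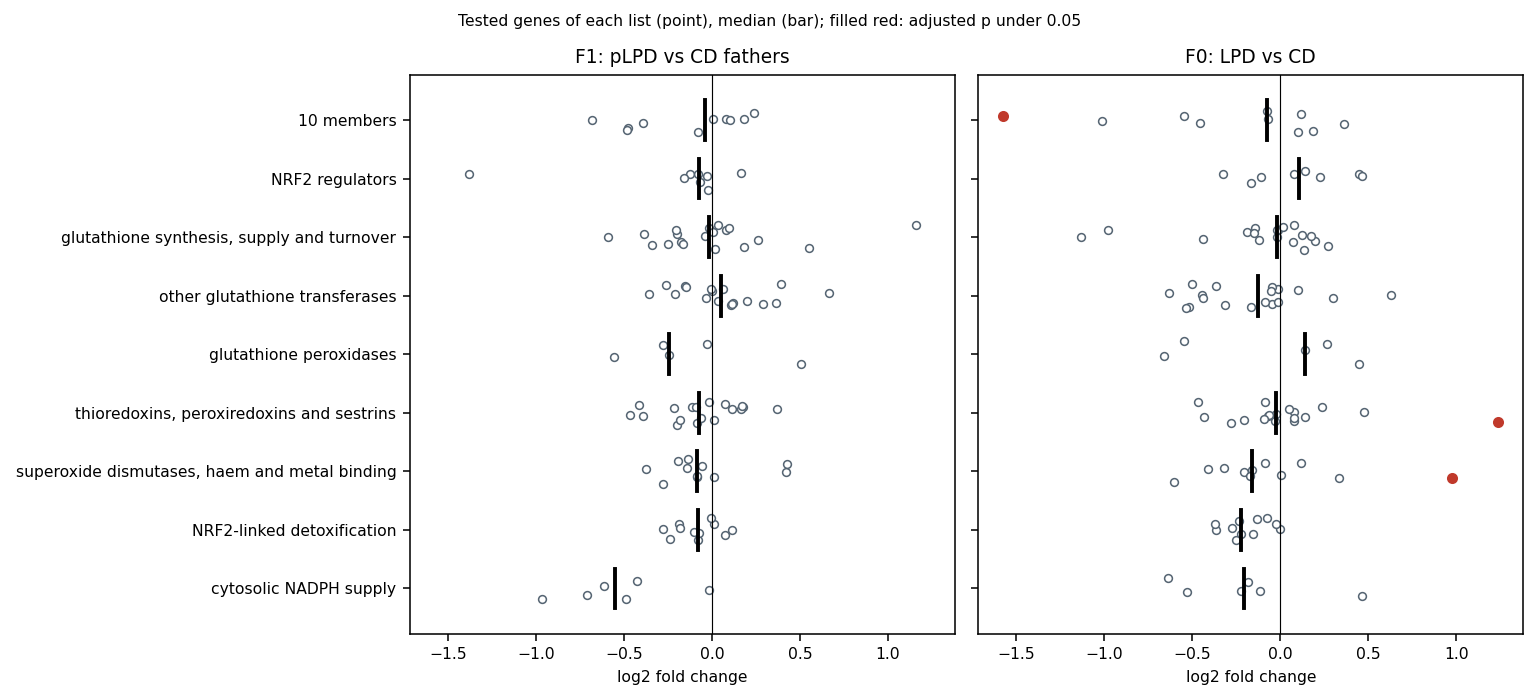
Log2 fold change of the 10 members and of the tested genes of 8 lists in F1 (left) and F0 (right), 1 point per gene, with the list median as a black bar; filled red points passed the adjusted threshold by edgeR. Red points are Gsta3, Sesn2 and Sod3, all in F0, and the NRF2-linked detoxification genes sit at or left of 0 in F0.

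Between the control groups, 31 of the 96 list genes tested passed, 14 higher and 17 lower in F0-CD, against the 18.9% of all genes given above. Higher in F0-CD were Nfe2l2 (log2 0.68 ± 0.17), the transferases Gstt1 (1.30 ± 0.18), Gstm6 (1.10 ± 0.31), Mgst3 (1.10 ± 0.17), Gstt2 (0.64 ± 0.18) and Gstz1 (0.48 ± 0.12), and the metallothioneins Mt2 (1.62 ± 0.33) and Mt1 (0.95 ± 0.20), which bind zinc and copper. Chac1, which degrades glutathione (1.26 ± 0.38), the thioredoxin inhibitor Txnip (0.91 ± 0.12), Msrb3 (0.37 ± 0.10), Ugdh (0.39 ± 0.11), Ephx1 (0.36 ± 0.11) and Abcc1 (0.34 ± 0.09) were also higher.
Lower in F0-CD were Keap1 (−0.31 ± 0.10), Maff (−1.05 ± 0.33), glutathione synthetase Gss (−0.63 ± 0.13), the glutaredoxins Glrx (−1.10 ± 0.26) and Glrx5 (−0.79 ± 0.11), Gsto1 (−0.33 ± 0.10) and Gpx4 (−0.34 ± 0.10), which reduces lipid peroxides. The Gss value turned to 0.19 on uniquely mapped reads. Also lower were Sod2 (−0.63 ± 0.09), Txnrd2 (−0.79 ± 0.15), Prdx3 (−0.36 ± 0.11), Prdx5 (−0.34 ± 0.11), Prdx2 (−0.29 ± 0.10), Msra (−0.39 ± 0.11), Msrb2 (−0.69 ± 0.18), Ccs, the copper chaperone for superoxide dismutase (−0.92 ± 0.19), Pgd (−1.04 ± 0.19) and Taldo1 (−0.75 ± 0.11). Their adjusted p values by edgeR ran up to 0.0494, that of Prdx2. DESeq2 did not call Keap1 (adjusted p = 0.0959), Gstm6 (0.0571), Gsto1 (0.0821), Prdx2 (0.0883), Prdx5 (0.0552) or Ephx1 (0.0612). Keap1 was called in 3 and Prdx2 in 2 of 6 alternative settings. Msra turned to 0.08 when reads on the whole gene were counted. Without each of the 5 libraries in turn, 7 of the 31 kept their call every time (Glrx5, Gstt1, Mgst3, Txnip, Sod2, Pgd and Taldo1), and 1, Chac1, was called in none of those fits.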

How the data were processed

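RNA-seq libraries (rRNA-depleted, directional, paired-end) of iWAT from 10 mice were mapped by the authors to mm10 with CLC Genomics Workbench. The deposited files give counts, the authors' numbers of exon reads, uniquely mapped exon reads and all reads per gene, without normalisation, and RPKM values, which the authors scaled by exon length and library total; these serve one alternative. Ambiguously mapped reads are part of the exon counts. Total exon reads were tested in R 4.3.3 with edgeR 4.0.16 (filterByExpr, TMM, quasi-likelihood F test, two-sided, Benjamini-Hochberg adjustment over all genes tested, threshold 0.05). F1 and F0 were fitted apart; the difference of diet effects and F0-CD against F1-CD came from a fit of all 10 libraries. The SE is the log2 fold change divided by the square root of F. Alternatives used DESeq2 1.42.0, limma 3.58.1 (log2 of RPKM + 0.1), other filters, counts, blocks and left-out libraries. Scripts were tested on simulated data. No 2 libraries of the same group were duplicates. The members, the 8 pathway and 9 marker lists and the alternatives were chosen with earlier results of these data known. Genes named are the 10 members, list genes past the threshold in any of the 4 comparisons, and Slc7a11 as stated. List genes that DESeq2 called for diet or for the difference of diet effects, and the markers Col1a1 and Col3a1, are named too. So are the 3 genes nearest by Pearson r of log2(CPM + 0.5) to Gsta3, Gstm1, Hmox1 and Gclm among genes of at least 10 CPM. The nearest genes of Gsta3 are not reported here.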

Additional observations from a re-analysis of the deposited data

Results flagged for a closer look

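Of the 96 list genes tested around the members, 3 had diet effects that differed between the generations by the test of the difference itself. That test is the interaction of generation and diet in edgeR over all 10 libraries, and 1.25% of all 15111 genes passed it. DESeq2 called 6 of the 96 (Maff, Gstt1, Gpx3, Sesn2, Sod3 and G6pdx). Gpx3, the secreted glutathione peroxidase, measured 459 and 743 CPM in F0-CD, 394 and 367 CPM in F0-LPD, 415, 433 and 506 CPM in F1-CD and 554, 624 and 733 CPM in F1-LPD; the F1 effect exceeded the F0 effect by a log2 of 1.16 (adjusted p = 0.0430). Without F0-CD replicate 2 the difference was 0.77 (adjusted p = 0.228), and the call held in 3 of 10 fits that left out a library. Sod3, at 199 to 230 CPM in F1, rose in F0-LPD as given above, and its difference was −1.07 (adjusted p = 0.0190). It was called in 7 of 10 such fits, but not without F0-CD replicate 2 (adjusted p = 0.126), F0-LPD replicate 2 (adjusted p = 0.0552) or F1-LPD replicate 2 (adjusted p = 0.0532). G6pdx, the first enzyme of the pentose phosphate pathway, measured 179 and 197 CPM in F0-CD, 238 and 280 CPM in F0-LPD, 261, 270 and 190 CPM in F1-CD and 160, 157 and 196 CPM in F1-LPD, a difference of −0.96 (adjusted p = 0.0454), called in 2 of 10 such fits, with −1.09 to −0.83 across them (adjusted p up to 0.216). On all reads of the gene, G6pdx (adjusted p = 0.0575) and Gpx3 (adjusted p = 0.0721) did not pass, and G6pdx did not pass with a replicate block (adjusted p = 0.0501). Generation, age and library set cannot be told apart in any of the 3.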

How the results depend on the processing

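Gsta3 in F0 was called in all 8 alternatives and all 4 fits without a library. With a covariate for the share of exon reads, F1 calls dropped to 1 higher and 10 lower genes from 20 and 144. That share was 51.6% to 59.3% in F1-LPD and 62.5% to 64.0% in F1-CD. The fit therefore cannot cleanly separate it from paternal diet, and lost calls do not tell the 2 apart. Gclm and Gsta3 were at −0.32 (adjusted p = 0.659) and −0.29 (adjusted p = 0.863) in it, and Hmox1 turned to 0.15. Direction also turned, always for values that were not called, for Nqo1 in F1 (−0.042 on all reads of the gene, −0.062 by limma-trend), for Cat in F1 (−0.020 on all reads, −0.0029 with all 4 groups in one fit, −0.16 by limma-trend, −0.049 with the exon share) and for Gclc (−0.061 by limma-trend in F1; on all reads 0.12 in F0, −0.086 for the difference of diet effects and −0.019 between the control groups). Called values that turned between the control groups were Gss (0.19 on unique reads) and Msra (0.079 on all reads). By limma-trend, run on RPKM without TMM, the F1 value of every member lay below that of the main fit, so the turns there were part of a shared shift. The cause of the other turns was not tested.
F1 calls (higher, lower, members) were 74, 301 and 2 by DESeq2, 234, 564 and 2 without a filter, and 62, 277 and 1 with all 4 groups in one fit; DESeq2's size factors called 1 member, unique reads 42 genes higher and limma-trend 2 higher. F0 calls, from 172 higher and 192 lower, became 633, 710 and 3 members without a filter, 110 and 65 with all 4 groups, and 30 and 52 by limma-trend. Calls of the difference, from 54 and 135, became 110 and 243 by DESeq2, and 314, 576 and 4 members without a filter. Between the control groups, all reads of the gene left 3 members called.
Replicate numbers come from the labels, and nothing there ties same-numbered mice to each other. In F1 the correlations of their deviations from the group means were 0.062, 0 and 0.015, and not every library correlated best with its own number. In F0 the value was 0.06, but with 2 libraries per group every pair gives the same size of value. It therefore says little about pairing. With a replicate block, 48 genes were higher in F1, and F0 calls became 656 higher, 735 lower and 3 members (Gsta3, Gsta4 and Gstm1).
Leaving out each library in turn gave 1 to 140 higher, 17 to 370 lower and 0 to 2 members in F1, 68 to 281, 37 to 223 and 1 to 2 in F0, 5 to 132, 14 to 263 and 0 to 1 for the difference, and 340 to 1384, 453 to 1526 and 2 to 6 between the control groups; F1 values ran from −0.072 to 0.33 for Nqo1 and from −0.037 to 0.063 for Cat. Of 510 gene values under the other alternatives, 452 held direction and call, 15 gained a call, 30 lost one and 13 turned; of 443 with a library left out, 326 held, 8 gained, 104 lost and 5 turned. Nqo1's 10 to 40 reads limit what can be seen.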
